A study of Mus musculus with 10 samples.

Results

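Ductal epithelium genes are a set of 9 genes grouped here under that name. The set holds the keratins Krt19, Krt7, Krt8, Krt18 and Krt20 and the transcription factor Sox9. It also holds the secreted glycoprotein Spp1, the adhesion molecule Epcam and the chloride channel Cftr. Not all are particular to ducts: Krt8 and Krt18 are also present in acinar cells, and Krt20 is best known from intestinal and urothelial epithelium. The 9 genes were picked out by symbol, with earlier results of these data known. All 9 were found among the 24421 genes of the count table. They passed the filter on low counts, as did 13688 genes in all. RNA sequencing of bulk tissue covered 10 libraries, each from a piece of the pancreas tail of 1 female mouse aged 12 weeks. All mice carried Ptf1aCreER, a Cre recombinase under the Ptf1a promoter of acinar cells that needs tamoxifen to act, and nTnG, a nuclear fluorescent reporter of recombination. They differed in the insulin receptor gene Insr: 3 WT mice had 0 floxed alleles (Insr w/w), 3 Het mice had 1 (Insr w/f) and 4 KO mice had 2 (Insr f/f). The question was how loss of Insr in acinar cells bears on the pancreas of these mice, and the duct genes were read here in tissue that was not sorted by cell type.

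Ducts carry the digestive juice from the acini and add bicarbonate-rich fluid to it, which depends on chloride leaving the cell through Cftr. Their cells hold the simple-epithelium keratins 8 and 18, which pair into filaments and are also present in acinar cells, and in addition keratins 7 and 19, by which ducts are usually recognised in sections. Sox9 maintains duct identity and is also switched on when acinar cells take on duct features, a change called acinar-to-ductal metaplasia.

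Depth did not separate the groups, at 11718559 to 18588327 counts in genes in WT, 13725964 to 19024351 in Het and 12028969 to 18191235 in KO. One WT library, WT-2404, stood apart: 27 acinar enzyme genes took 15.7% of its counts, whereas they took 58.3% and 71.4% in the other WT libraries, 71.2 to 76.1% in Het and 62.3 to 77.3% in KO. Values are therefore given as CPM, each gene's counts relative to the library's total and scaled by TMM factors. These factors rescale each library as a whole for such a shift. They do not remove a difference in cell type content between the pieces. Results are also given without WT-2404, which keeps WT-1860, whose enzyme share also lay below every Het and KO library. Insr itself lay at 29.8 ± 9.88 CPM in WT, 38.5 ± 8.92 in Het and 31.5 ± 5.95 in KO (SD, n = 3, 3 and 4). The KO to WT log2 difference of Insr was 0.09 with an adjusted p of 0.864 in edgeR's quasi-likelihood test, a count over the whole gene and over all cells, which does not check the deletion.

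All 9 genes were lower in KO than in WT (48.2% of all genes were), by 1.26-fold (Krt18) to 3.92-fold (Krt7), and none passed an adjusted p of 0.05 in edgeR's quasi-likelihood test, in which 0% of all genes passed. The ranges did not overlap for 8 of the 9, all but Krt18, against 9.17% of all genes lying wholly below WT. Without WT-2404 it was the same 8, against 9.94%. At an unadjusted p under 0.05, 8 of the 9 were lower, against 13.9% of all genes. The KO level was at least 2-fold lower for 6 of the 9, against 10.5%, and the median log2 fold change was -1.54 over the 9 genes and 0.03 over all genes tested. Because the 9 genes were chosen with earlier results of these data known, these shares and those below describe the set and do not test it. In bulk tissue, fewer duct cells, less of these RNAs per cell and a change in other cells that make some of them cannot be told apart.

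**Figure D1:**
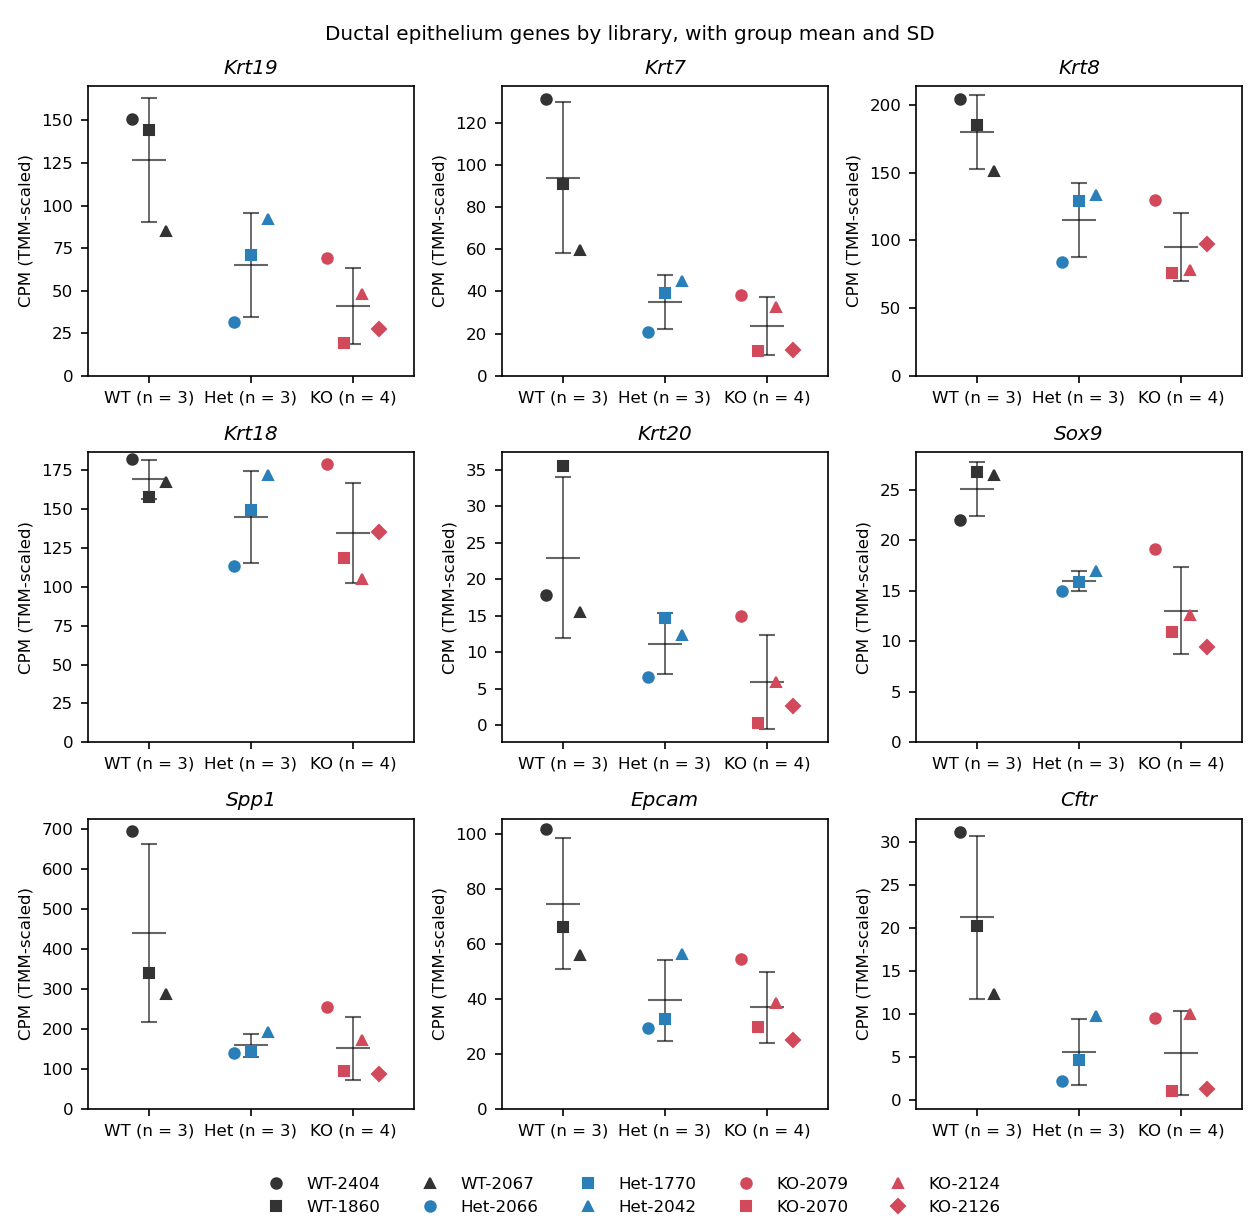
TMM-scaled CPM of each of the 9 genes in each of the 10 libraries by genotype group, on linear axes, with 1 symbol a library and bars for the group mean and SD. The WT points lie above all KO points for every gene but Krt18, and the lowest KO libraries for Krt20 and Cftr are KO-2070 and KO-2126.

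Among the keratins by which ducts are recognised, Krt19, the smallest keratin, had WT levels of 151 CPM (WT-2404), 144 (WT-1860) and 85.1 (WT-2067). In Het it was at 31.8 (Het-2066), 70.8 (Het-1770) and 92.0 (Het-2042), and in KO at 69.1 (KO-2079), 19.2 (KO-2070), 48.3 (KO-2124) and 27.8 (KO-2126). The highest KO library thus stayed below the lowest WT library, while the highest Het library did not. The KO to WT log2 fold change was -1.62 (SE 0.45, adjusted p = 0.116, edgeR), and -1.46 without WT-2404.

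Krt7, the type II partner of keratin 19 in ducts, showed the lowest KO to WT log2 fold change of the 9 over all libraries, while Krt20 gave a lower value without WT-2404 or KO-2079, and Cftr without KO-2124. Krt7 levels were 131, 90.7 and 59.8 CPM in WT, 20.6, 39.5 and 44.8 in Het, and 38.4, 11.6, 32.7 and 12.4 in KO, in the same order of mice. Both groups lay wholly below WT. The KO to WT log2 fold change was -1.97 (SE 0.46, adjusted p = 0.116, edgeR) and the Het value -1.43 (SE 0.49, adjusted p = 0.186).

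Krt20, a keratin best known from intestinal and urothelial epithelium, was at 17.8, 35.6 and 15.5 CPM in WT, 6.58, 14.7 and 12.3 in Het, and 15.02, 0.263, 5.99 and 2.63 in KO. It varied most among the KO mice. The KO range lay below WT by a narrow margin, with KO-2079 on 243 counts and WT-2067 on 253. The KO-2070 value rests on 2 counts, with a 95% Poisson interval of 0.0319 to 0.951 CPM that covers counting error only. Its KO to WT log2 fold change was -1.88 (SE 0.73, adjusted p = 0.166, edgeR), and -2.82 without KO-2079.

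Krt8 and Krt18 are the type II and type I partners of the basic simple-epithelium filament. Krt8 was at 204, 185 and 151 CPM in WT, 83.9, 129 and 133 in Het, and 130, 76.0, 77.9 and 97.4 in KO. Krt18 was at 183, 158 and 168 CPM in WT, 114, 149 and 172 in Het, and 179, 118, 105 and 135 in KO. Krt8 separated both groups from WT and Krt18 separated neither. Krt8 gave a KO to WT log2 fold change of -0.92 (SE 0.27, adjusted p = 0.117, edgeR), and Krt18 gave -0.33 (SE 0.25, adjusted p = 0.429). Krt8 has a processed pseudogene copy in the annotation, so its reads are uncertain to that extent.

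Krt8 and Krt18 lie next to each other on chromosome 15 (GRCm38, the build called mm10), at chr15:101996698-102004482 on the minus strand and chr15:102028180-102032027 on the plus strand, their starts 23.7 kb apart and facing away from each other. Krt7 lies on the same chromosome (chr15:101411043-101430313, plus strand). Krt19 (chr11:100140810-100148665, minus strand) and Krt20 (chr11:99428403-99438150, minus strand) lie in the type I cluster on chromosome 11, 703 kb apart. The 250 bases before the start of 5 genes are shown because their levels spanned the smallest and the largest differences: the Krt8 and Krt18 pair, and Krt7, Krt20 and Cftr. They come from RefSeq on GRCm38.p6, run 5′ to 3′ toward the gene, and carry in capitals every match on either strand to TATAAA (a motif bound by TBP), GGGCGG (a GC box, bound by SP factors), TGANTCA (AP-1), ACAATG (SOX factors) or GGAATG (TEAD factors). RefSeq's starts differ from the outer gene ends above for some of these genes.
Krt8 (chr15:102004343-102004592, minus strand): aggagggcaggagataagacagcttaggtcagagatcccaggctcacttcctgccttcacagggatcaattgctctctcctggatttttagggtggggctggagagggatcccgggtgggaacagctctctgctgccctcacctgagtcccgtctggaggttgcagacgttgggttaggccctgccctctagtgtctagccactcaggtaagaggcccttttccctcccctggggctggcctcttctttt
Krt18 (chr15:102027966-102028215, plus strand): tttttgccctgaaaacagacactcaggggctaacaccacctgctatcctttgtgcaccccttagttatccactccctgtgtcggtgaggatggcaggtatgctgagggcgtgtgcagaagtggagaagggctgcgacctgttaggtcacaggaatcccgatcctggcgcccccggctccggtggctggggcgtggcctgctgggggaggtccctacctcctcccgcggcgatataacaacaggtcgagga
Krt7 (chr15:101412153-101412402, plus strand): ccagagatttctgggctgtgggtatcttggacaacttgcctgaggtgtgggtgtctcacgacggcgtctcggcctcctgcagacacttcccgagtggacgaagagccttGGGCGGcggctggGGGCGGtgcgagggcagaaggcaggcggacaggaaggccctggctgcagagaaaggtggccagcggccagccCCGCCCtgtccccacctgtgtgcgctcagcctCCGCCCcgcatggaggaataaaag
Krt20 (chr11:99438154-99438403, minus strand): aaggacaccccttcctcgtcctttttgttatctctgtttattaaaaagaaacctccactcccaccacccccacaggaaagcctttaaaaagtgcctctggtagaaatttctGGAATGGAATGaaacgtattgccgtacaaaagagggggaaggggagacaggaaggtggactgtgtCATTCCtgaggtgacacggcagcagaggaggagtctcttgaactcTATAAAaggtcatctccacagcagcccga
Cftr (chr6:18170437-18170686, plus strand): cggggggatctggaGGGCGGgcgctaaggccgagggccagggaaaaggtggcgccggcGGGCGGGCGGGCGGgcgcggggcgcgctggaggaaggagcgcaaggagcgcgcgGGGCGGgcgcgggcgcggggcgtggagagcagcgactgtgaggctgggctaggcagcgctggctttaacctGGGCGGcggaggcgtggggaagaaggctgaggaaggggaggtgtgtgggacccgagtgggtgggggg

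The Krt7 stretch held 4 GC boxes and the Cftr stretch 6, some of which overlap, whereas 32.7% of 32851 mouse promoters of this length held at least 1. The Krt20 stretch held 1 TATA box and 3 TEAD matches, 2 of them overlapping by 1 base, and 12.4% and 12.6% of promoters held these motifs. The Krt8 and Krt18 stretches held no match to any of the motifs. AP-1 and SOX motifs, present in 6.75% and 10.7% of promoters, were matched in none of these 5. GC content was 76.4% for Cftr, 66% for Krt7, 60.4% for Krt18, 58% for Krt8 and 48% for Krt20, against a median of 52.4% over all promoters. A match is a run of letters only, with no binding measured here. Of the 9 genes, 7 had a promoter entry, and Krt19 and Sox9 had none.

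Sox9, the transcription factor of the set, was at 21.9, 26.7 and 26.5 CPM in WT, 14.99, 15.8 and 16.9 in Het, and 19.2, 10.9, 12.6 and 9.39 in KO. Neither Het nor KO overlapped WT, and the spread was wider in KO than in Het. The log2 fold change was -0.93 in KO (SE 0.22, adjusted p = 0.116, edgeR) and -0.65 in Het (SE 0.24, adjusted p = 0.194). Sox9 (chr11:112782224-112787760, plus strand) was the only one of the 9 for which WT-2404 was the lowest WT library.

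Cftr (chr6:18170687-18322768, plus strand), the apical chloride and bicarbonate channel, was at 31.1, 20.2 and 12.2 CPM in WT. It was at 2.19, 4.66 and 9.76 in Het, and at 9.46, 1.05, 9.95 and 1.31 in KO. Both groups lay wholly below WT, and KO-2070 and KO-2126, on 8 and 13 counts, lay far below KO-2079 and KO-2124. The log2 fold change was -1.89 in KO (SE 0.71, adjusted p = 0.156, edgeR) and -1.92 in Het (SE 0.78, adjusted p = 0.220).

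Epcam (chr17:87635979-87651129, plus strand), a homophilic adhesion molecule of most simple epithelia, was at 102, 66.4 and 56.0 CPM in WT, 29.5, 32.5 and 56.6 in Het, and 54.6, 29.8, 38.5 and 25.1 in KO. The KO mice lay below WT by a narrow margin, and Het-2042 overlapped WT. The KO to WT log2 fold change was -1.01 (SE 0.32, adjusted p = 0.123, edgeR), and -0.71 without WT-2404.

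Spp1 (chr5:104435118-104441050, plus strand) encodes osteopontin, a secreted ligand of integrins and Cd44 that duct cells make and that macrophages make as well. Its levels were 695, 338 and 287 CPM in WT, 139, 145 and 192 in Het, and 254.5, 93.5, 172 and 85.5 in KO. Both groups lay wholly below WT, and WT-2404 was far above the other libraries. The log2 fold change was -1.54 in KO (SE 0.42, adjusted p = 0.116, edgeR) and -1.47 in Het (SE 0.46, adjusted p = 0.183). Without WT-2404 these values were -1.03 and -0.96.

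All 9 genes were also lower in Het than in WT (49.7% of all genes were), and again none passed the adjusted threshold (0% of all genes did, edgeR). The ranges lay wholly below WT for 6 genes, not for Krt19, Krt18 and Epcam, against 13.5% of all genes. At an unadjusted p under 0.05, 6 of the 9 were lower, against 11.6% of all genes, 4 of 9 were at least 2-fold lower, against 10.8%, and the median log2 fold change was -0.97, against 0.0047 over all genes. Without Het-2066, 1 of the 9 (Spp1) was lower at an unadjusted p under 0.05 (6.56% of all genes), and without Het-1770 3 of the 9 (7.48%). The KO and Het comparisons share the WT libraries, so that they are not independent of each other.

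KO against Het compares the KO and Het libraries, but its filter, scaling and spread come from the fit of all 10 libraries. Its SEs and p-values therefore draw on the WT libraries as well. None of the 9 genes passed (0% of all genes, edgeR), 0 of 9 had a KO range below Het against 1.16% of all genes, 0 of 9 were lower at an unadjusted p under 0.05 against 0.351%, and 0 of 9 were at least 2-fold lower against 0.811%. The direction was lower for 8 of 9, against 48.6%. Log2 differences ran from -0.84 for Krt20 (SE 0.74) to 0.03 for Cftr (SE 0.74), with Krt19 at -0.65 (SE 0.45) and Spp1 at -0.07 (SE 0.42). Fitted without the WT libraries, the SEs were 0.88 for Krt20, 0.87 for Cftr, 0.47 for Krt19 and 0.36 for Spp1. With SEs of this size, the differences between 1 and 2 floxed alleles were not resolved. These counts moved with single libraries: without KO-2079, 3 of the 9 were lower at an unadjusted p under 0.05 (0.646% of all genes), Krt19 at -1.02, Krt20 at -1.79 and Sox9 at -0.53. Without Het-2066 it was Krt19 alone, at -0.98 (0.549%), with Krt20 at -1.11, and none passed the adjusted threshold in edgeR in either case.

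**Figure D2:**
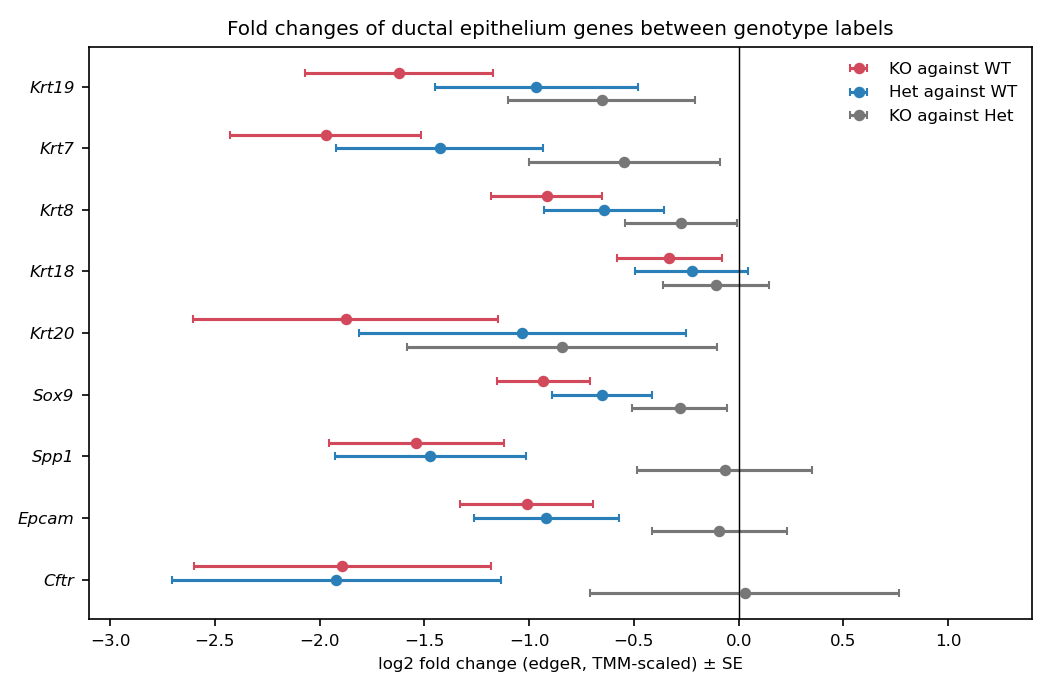
Log2 fold changes of the 9 genes from edgeR with SE bars, for KO against WT, Het against WT and KO against Het. KO and Het values lie below 0 for every gene against WT, and the KO against Het values run from -0.84 to 0.03.

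The absence of calls depended on the test and on 1 library. DESeq2 called 6 of the 9 genes lower in KO (3.96% of all genes), with adjusted p from 0.00339 (Krt7) to 0.0456 (Epcam), and Spp1 alone in Het (adjusted p = 0.0388, against 1.34%). With WT-2067 left out, edgeR called the same 6 in KO (7.42% of all genes), with adjusted p from 0.0256 to 0.0408, and Spp1 in Het (adjusted p = 0.0470, against 4.01%). The WT libraries left were then WT-2404 and WT-1860, with acinar enzyme shares of 15.7% and 58.3%. Both shares lay below those of every Het and KO library (62.3% or more), and their part in these calls was not tested. Without WT-2404 edgeR called none, 5 of 9 had an unadjusted p under 0.05 in KO (5.29% of all genes) and 2 of 9 in Het (3.61%), and the medians were -1.03 and -0.80. With library size alone in place of TMM factors, under which the median of all genes was -1.17 in KO and -1.36 in Het, edgeR called 8 of the 9 lower in KO (20.7% of all genes) and 7 in Het (22.8%).

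Per kilobase of exon, Spp1 was highest in WT at 267 ± 135 CPM (SD, n = 3), followed by Krt18 at 118 ± 8.71, Krt8 at 91.9 ± 13.8 and Krt19 at 80.5 ± 23.0. Epcam (36.2 ± 11.6), Krt7 (23.0 ± 8.77), Krt20 (11.9 ± 5.70), Sox9 (6.06 ± 0.650) and Cftr (2.83 ± 1.26) came next. In WT the ranges of Krt8 and Krt19, Epcam and Krt7, and Krt7 and Krt20 overlapped and the other neighbours were separate. In KO, Krt18 at 93.6 ± 22.4 and Spp1 at 91.8 ± 47.9 (n = 4) led, and only Epcam and Krt7 were separate among neighbours. Krt19 was at 41.2 ± 19.4 in Het and 26.1 ± 14.2 in KO on this scale.

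Ratios of 2 genes within a library need no scaling between libraries. The Krt8 to Krt18 ratio was 1.12, 1.17 and 0.899 in WT, 0.739, 0.861 and 0.774 in Het, and 0.726, 0.642, 0.741 and 0.718 in KO. All KO and Het values lay below WT. The KO to WT log2 difference was -0.58 (exact two-sided permutation p = 0.0286, which is the lowest possible with these group sizes), and the adjusted p was 0.343 over 15 ratio comparisons. Without WT-2404 the difference was -0.54.

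The other ratios overlapped between groups in KO against WT. Krt19 to Krt8 was 0.695 ± 0.115 in WT, 0.540 ± 0.156 in Het and 0.423 ± 0.181 in KO (exact permutation p = 0.143, KO against WT). Spp1 to Krt19 was 3.44 ± 1.13, 2.83 ± 1.32 and 3.79 ± 0.754, and Krt7 to Krt19 was 0.734 ± 0.124, 0.564 ± 0.0807 and 0.571 ± 0.0956. Cftr to Krt19 was 0.164 ± 0.0369 in WT, 0.0810 ± 0.0220 in Het and 0.113 ± 0.0740 in KO, where it ran from 0.0490 to 0.206. None of the 15 comparisons passed after adjustment, and 3 against 3 mice cannot go below 0.1.

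**Figure D3:**
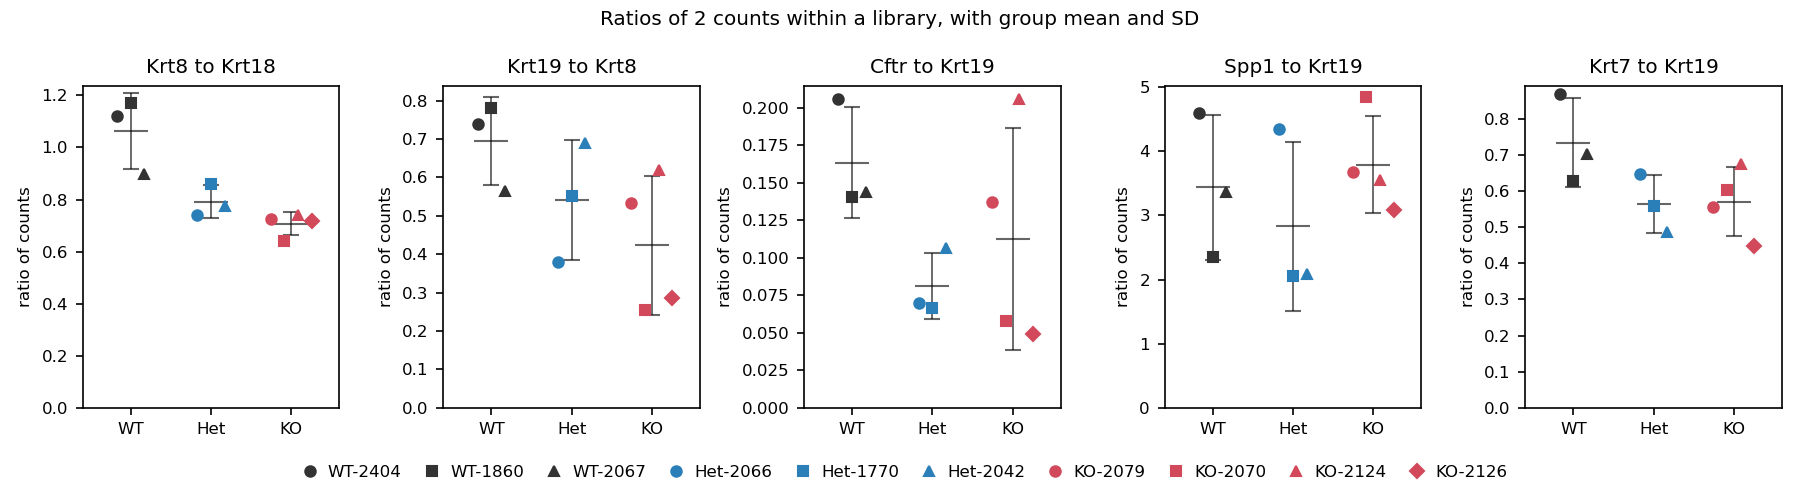
Ratios of counts of 2 genes within each library, by genotype group, with 1 symbol a mouse and bars for the group mean and SD. For Krt8 to Krt18 the WT points (0.899 to 1.17) lie above all Het and KO points (0.642 to 0.861), and the other ratios overlap between WT and KO.

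The rest of the duct programme was described through lists of other genes. Of the 13 genes of duct ion and water transport, 11 were tested, 7 were lower in KO and 4 higher, none passed, and the median log2 fold change was -0.31. Aqp5, a water channel, was at 9.10 ± 2.72 CPM in WT and 2.85 ± 1.71 in KO (log2 -1.62, adjusted p = 0.130, edgeR). Slc12a2, the basolateral sodium-potassium-chloride cotransporter, was at 46.0 ± 6.46 and 29.2 ± 4.76 (log2 -0.66, adjusted p = 0.121). In Het the log2 values of Aqp5 and Slc12a2 were -1.97 and -0.60. For reading these counts, 48.2% of all genes were lower in KO and their median was 0.03.

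Of 12 duct transcription factors and cilium genes, 8 were lower and 4 higher in KO, with a median of -0.44 and none past the threshold. Sox4, a factor of progenitors and tumours, was at 21.7 ± 7.80 CPM in WT and 8.18 ± 2.62 in KO (log2 -1.39, SE 0.32, adjusted p = 0.116, edgeR). Ehf, an epithelial ETS factor, gave -0.85 and Hes1, a Notch target, gave -0.98.

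Among 12 epithelial surface and junction genes, 9 were lower in KO and 3 higher, none passed, and the median was -0.60. Cldn4, a tight-junction claudin, was at 29.3 ± 12.3 CPM in WT and 7.52 ± 4.997 in KO (log2 -1.94, SE 0.48, adjusted p = 0.116, edgeR). Prom1, an apical membrane protein, gave -0.94, and Clu, a secreted chaperone, gave -1.53. In the desmosomes and their keratin linkers the median was -0.24, with 6 of 9 lower, and Dsc2, a desmosomal cadherin, gave -0.88 (SE 0.20), Plec -0.49 and Pkp3 -0.36. Of 12 other keratins, 4 were tested, 2 lower and 2 higher, and 2 were at 0 in every library.

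Receptors of Spp1 were lower in KO for 9 of 10 genes, with a median of -0.87, none past the threshold. Cd44, a hyaluronan and osteopontin receptor, was at 60.2 ± 23.6 CPM in WT and 16.4 ± 11.2 in KO (log2 -1.85, SE 0.52, adjusted p = 0.117, edgeR). The integrin subunits Itga5 and Itgav gave -1.01 and -0.83. Of 11 genes of gastric-type metaplasia, 10 were lower in KO with a median of -1.62, and the Het to WT median was -0.58. None passed, and 2 of the 11 were lower at an unadjusted p under 0.05 in edgeR, against 13.9% of all genes. Tff2, the only gene of this list higher in KO, gave 1.04 (adjusted p = 0.251, edgeR). Its level was 792 ± 553 CPM in WT and 1626 ± 380 in KO. The summed level of the list was not lower in KO, with means of 1600 CPM in WT and 1854 in KO. The WT libraries differed widely for some of these genes, such as Gkn1 at 29.9, 605 and 96.8 CPM. Vsig1, a gastric junction protein, gave -2.06, Anxa10 -2.02 and Cldn18 -1.62, with Vsig1 and Anxa10 below WT in every KO library.

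**Figure D4:**
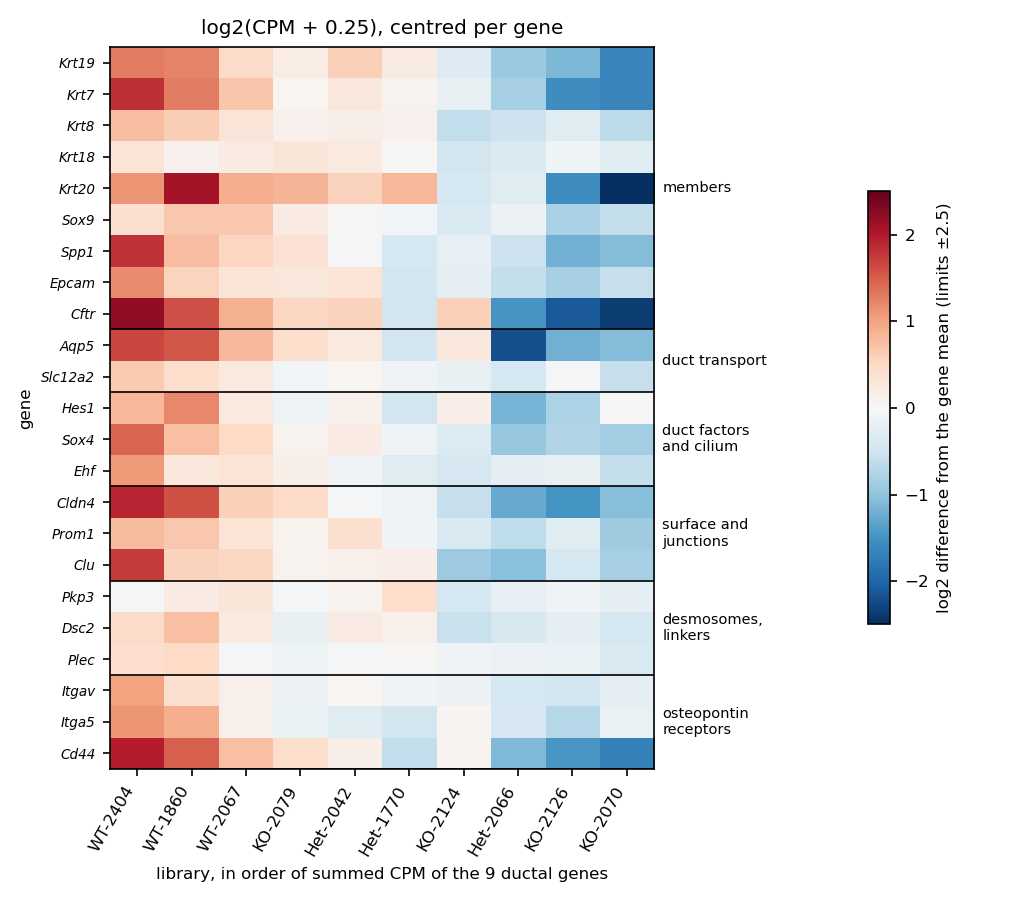
Log2 CPM of the 9 genes and of genes with the smallest unadjusted p in 5 other lists, at most 3 a list (rows) in each of the 10 libraries (columns, in order of the summed CPM of the 9 genes), centred on each gene's mean, with a pseudocount of 0.25 and colours limited at 2.5 on either side. For the 9 genes the 3 WT columns are above the mean (red) and KO-2126 and KO-2070 below it (blue).

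Marker lists of other cell types also lay at other levels in the groups, and their part in these results was not tested. All 14 macrophage genes were lower in KO (median log2 -1.72), against 48.2% of all genes. Of these, 12 were lower at an unadjusted p under 0.05 in edgeR, against 13.9% of all genes. The KO range lay wholly below WT for 2 of the 14, against 9.17%. Their summed level was 483 to 1992 CPM in WT, 264 to 397 in Het and 152 to 568 in KO. Fibroblast genes were lower for 11 of 12 (median -1.32), at 1358 to 4632 CPM in WT, 585 to 1065 in Het and 517 to 1215 in KO. Lymphoid genes were lower for 11 of 11 (median -1.19), at 42.3 to 78.5 CPM in WT, 19.8 to 22.2 in Het and 7.47 to 47.9 in KO. Examples are Itgam of macrophages (log2 -1.85), Col1a1 of fibroblasts (log2 -2.57) and Ptprc of leukocytes (log2 -1.27), none past the threshold in edgeR. The islet, mesothelial and adipocyte lists were higher for 12 of 13, 5 of 6 and 7 of 8 genes, and the endothelial median was 0.08. All 27 acinar enzyme genes were higher in KO, with a median of 1.17, and none passed. No cell type list was at 0 in any library.

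With the acinar enzyme share of each library as a covariate, all 9 genes stayed lower in KO than in WT, at log2 values from -0.29 (Krt18) to -1.86 (Krt20) with a median of -0.996, and 5 had an unadjusted p under 0.05 (3.24% of all genes were lower at that level). In Het all 9 were lower with a median of -0.71, and 1 (Sox9) had an unadjusted p under 0.05 (1.61%). In KO, Spp1 then gave -0.84, Krt19 -1.26 and Krt7 -1.40. No gene passed the adjusted threshold in this fit in KO or Het against WT (smallest adjusted p = 0.671 in KO, edgeR). The share was far lower in WT-2404 than elsewhere and partly follows the genotype groups. The fit therefore cannot separate acinar content from genotype.

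**Figure D5:**
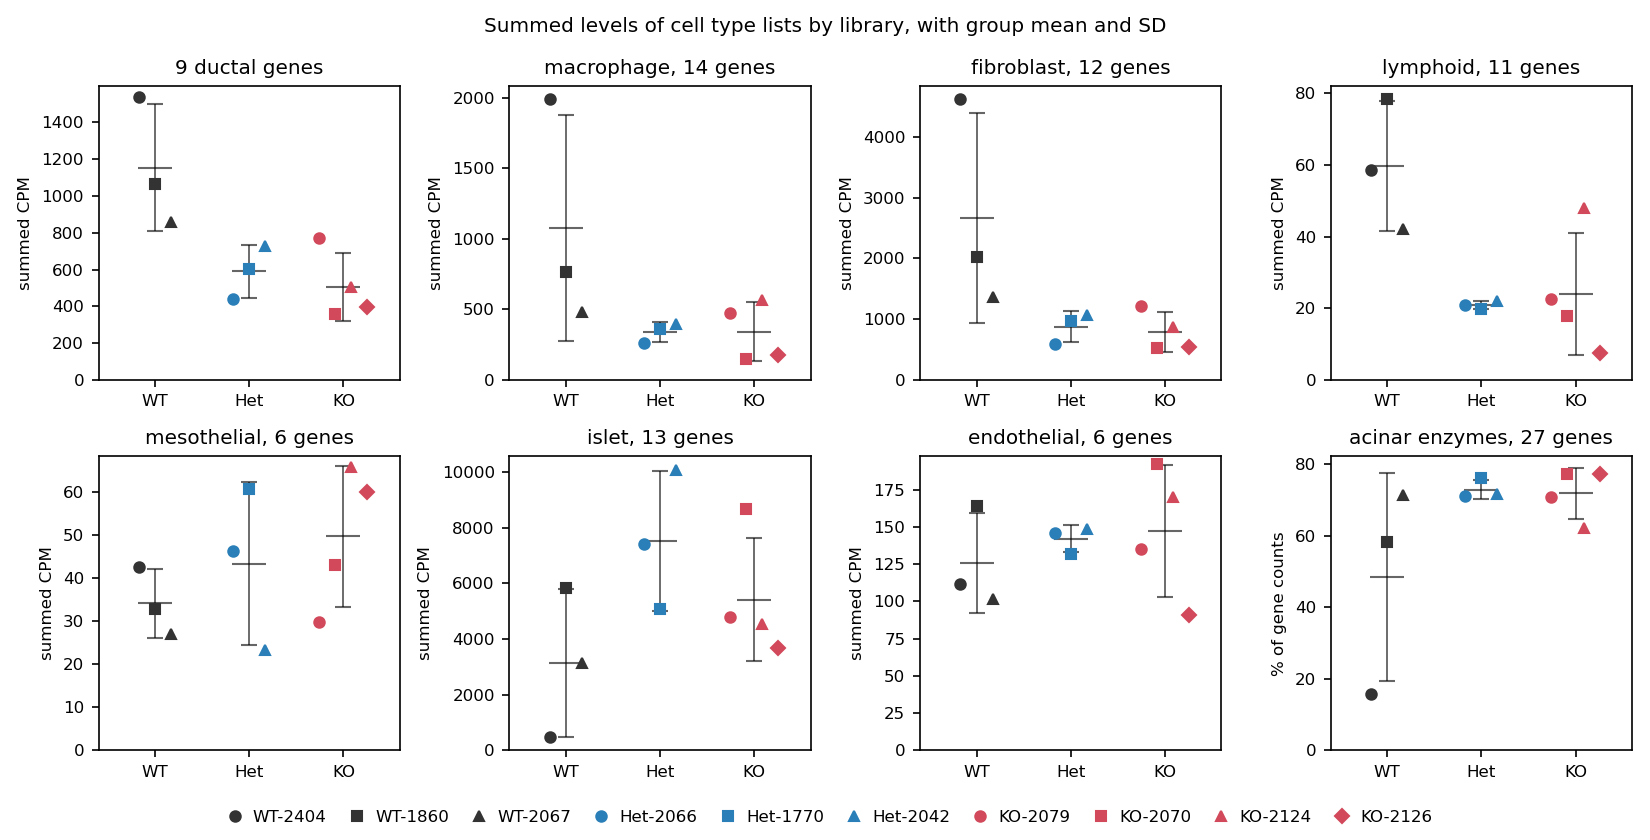
Summed CPM of the 9 genes and of marker lists in each library by genotype group, and the percent of counts in acinar enzyme genes, on linear axes, with bars for the group mean and SD. Macrophage and fibroblast sums are highest in WT-2404 (1992 and 4632 CPM), and islet sums are lowest there (493 CPM).

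The 9 genes did not all vary alike over the 10 libraries. The mean absolute difference of centred log2 CPM was 0.203 for Krt19 and Krt7, 0.228 for Krt8 and Krt18 and 0.233 for Krt8 and Sox9, and it reached 1.18 for Krt18 and Cftr. By the same measure over all tested genes, the nearest to Krt19 were Golm1 (0.144) and Basp1 (0.174), to Krt7 Anxa2 (0.113) and Ctxn1 (0.130), and to Krt8 Prom1 (0.117) and Cttn (0.120). Krt18 had St14 (0.0818) and Matn2 (0.0823), Krt20 had Cwh43 (0.310) and Vsig1 (0.315), and Sox9 had Anxa4 (0.138) and Sema4d (0.160). Spp1 had Spon1 (0.104) and Rab31 (0.141), Epcam had Pls3 (0.119) and Lgals3bp (0.128), and Cftr had Tns4 (0.193) and E2f7 (0.218). The points share libraries, depth and composition, and the median over all genes was 0.420 to 1.37.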

How the data were processed

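RNA from frozen, pulverised tail pieces was made into stranded mRNA libraries, per the labels' protocols. The submitters' processing notes name DRAGEN, STAR and Cufflinks with no role, and the build mm10; the counter, its annotation and strand setting are not given in the sources used here. The authors deposited raw counts per gene, which were used as deposited. Rows that name no gene (2 in all) stayed out: reads in no feature were 2.59 to 8.71% and ambiguous reads 0.101 to 0.584% of counts. All columns matched a sample. The labels state 1 more WT mouse than the 3 used; it is not analysed here. One more allele, carried by every mouse, and some list genes that the rule below would name are not reported here.

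Counts were fitted in edgeR 4.0.16 (R 4.3.3; TMM factors, filterByExpr with a minimum count of 10, robust quasi-likelihood test, all 10 libraries in 1 fit), with Benjamini-Hochberg adjustment over 13688 genes and a threshold of 0.05. Each mouse is 1 library. In the main fit, edgeR p-values set a group difference against the spread between mice, estimated with all 10 libraries. Libraries of a group differed beyond sampling noise (chi-square per degree of freedom 28.7 to 1041). Ratios used log2 of counts plus 0.5 and exact two-sided permutation tests over mice. In data simulated for KO against WT (13355 genes), 13% of genes changed by a log2 of 1 were recovered. Of those changed by a log2 of 2, 94% were recovered, and there were 8 false calls in all. The simulation gave every gene 1 fixed spread between mice, which was not taken from these libraries. These shares therefore do not measure the power of the test in the real data. Named genes are the 9 members, Insr, up to 3 genes a list with the smallest unadjusted p in KO against WT (any past the threshold), and the 2 genes nearest each member. Tff2 is named as well, as the only gene of its list that was higher in KO. Alternatives were DESeq2 1.42.0, its size factors, library size alone, scaling without acinar enzymes, a looser filter, the enzyme share as covariate, only the groups compared, and each library left out. The members and lists were chosen with earlier results of these data known. Gene models are GENCODE vM21 and promoters are RefSeq.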

Additional observations from a re-analysis of the deposited data

Results flagged for a closer look

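The summed level of the other keratins was 10.1 CPM in KO-2124 and 16.4 to 17.2 CPM in the other 3 KO libraries, so that KO-2124 lay far from the rest. Krt23, chosen here after its values were seen, was at 6.59 CPM in KO-2124. Among 30 measures examined for such a gap in the 4 KO libraries, 1 was met, and chance gives about 1.5.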

How the results depend on the processing

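All 9 genes kept a lower level in KO and in Het than in WT under every alternative run. In edgeR 0 genes passed in each comparison, with 3221, 2714 and 103 at an unadjusted p under 0.05 for KO against WT, Het against WT and KO against Het (DESeq2: 3514, 3088 and 158). DESeq2 called 1011 genes for KO and 391 for Het, each against WT, and library size alone called 2835 and 3125, all lower, under which the median of all genes was -1.17 and -1.36. Leaving out each library gave 0 to 1933 and 0 to 1158 calls, the highest without WT-2067. The cause was not tested. KO against Het values near 0 changed sign: Cftr was -0.016 in DESeq2, -0.089 with the enzyme share as covariate and -0.41 to 0.74 leaving out each library. With library size alone Krt18 was 0.027, Spp1 0.20 and Epcam 0.11, and leaving out each library they ran from -0.28 to 0.034, -0.44 to 0.13 and -0.34 to 0.26. Leaving out each library, the log2 ratio of Spp1 to Krt19 ran from -0.075 to 0.41 in KO against WT, and in KO against Het that of Krt7 to Krt19 from -0.090 to 0.12 and that of Cftr to Krt19 from -0.11 to 0.58. Low counts limit Krt20 and Cftr in KO-2070 and KO-2126. No paired analysis was possible because no 2 groups share a mouse number.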
